A study of Rattus norvegicus with 2 samples.

Results

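The genes described here encode axoglial immunoglobulin and synaptic adhesion molecules, the surface proteins through which oligodendrocytes, axons and synaptic partners recognise each other. They were chosen by symbol from a list of 39 names, of which 38 had a row in the deposited table of 17455 genes; Lrrtm1 was not analysed here. Rat OPCs (oligodendrocyte precursor cells, which mature into myelinating oligodendrocytes) were transfected either with a Slit1 construct (called Slit1 below) or with the vector (called vector below), and their total RNA was sequenced. The labels call the cells of each group wild type and give a Lonza kit for the transfection, and the series title places the experiment during OPC differentiation. There was 1 library in each group, so no difference below has a replicate check, and no p-value is given. The labels do not state the age or sex of the animals, the time after transfection or the share of cells transfected.

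As background, myelinating glia attach to axons through pairs of adhesion proteins. At the paranode, glial neurofascin faces axonal contactin and Caspr; at the juxtaparanode, contactin-2 and Caspr2 hold the membranes together; along the internode, Cadm4 on the glial side meets Cadm proteins on the axon. OPCs also receive synapses from neurons, and neurexins, neuroligins and leucine-rich repeat proteins such as the Lrrtm family organise synaptic contacts. The name of the group is wider than the immunoglobulin superfamily: Megf10 and Megf11 carry EGF-like repeats, Lrrtm proteins carry leucine-rich repeats, and neurexins and neuroligins belong to families of their own.

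The Slit1 library held 18998770 estimated counts and the vector library 18817462. Slit1 itself stood at 229.7 TPM (a length-normalised transcript abundance) in the Slit1 library and at 1.70 TPM in the vector library. All 10 measured OPC markers were above 1 TPM in each library, but their levels were uneven. Sox10, Gpr17 and Vcan were 3.05-fold, 2.40-fold and 1.77-fold higher in Slit1, and Ptprz1 was 1.33-fold lower. Pcdh15 and Lhfpl3 were 1.39-fold and 1.21-fold higher, and Pdgfra, Cspg4, Olig1 and Olig2 were close to even. Markers of other cells were present too: 9 astrocyte markers summed to 8085 TPM in Slit1 and 6838 TPM in vector, mostly Gfap (6130 TPM in Slit1 and 4694 TPM in vector), while Slc1a2 and Gja1 were 2.29-fold and 1.71-fold lower in Slit1. The 16 neuronal markers summed to 129.1 TPM in Slit1 and 117.8 TPM in vector, but single markers went either way. Rbfox3, Snap25, Syt1, Nefl, Nefm, Elavl4, Dcx, Gad2 and Camk2a were lower in Slit1, from 1.09-fold for Dcx to 2.61-fold for Nefl. Stmn2, Gad1, Tubb3 and Elavl3 were higher, from 1.18-fold for Stmn2 to 1.66-fold for Elavl3. Slc17a6 and Slc17a7 were listed at 0 in Slit1, with 2 and 7 counts in vector, and Slc32a1 at 0 in vector, with 8 counts in Slit1. The 6 measured microglial markers summed to 5.19 TPM in Slit1 and 3.02 TPM in vector, and the 9 measured markers of endothelial cells, pericytes and fibroblasts to 23.3 TPM in Slit1 and 23.8 TPM in vector. Of the 7 Schwann cell markers, Mal and Foxd3 were listed at 0 in Slit1, with 3 and 1 counts in vector. Ncmap was listed at 0 in vector, with 1 count in Slit1. Pmp22, which other cells also express, made up most of the sum of 304.6 TPM in Slit1 and 382.1 TPM in vector. The part of these other cells in the results below was not tested, and in bulk RNA a change in the number of cells of a type cannot be told apart from a change in RNA per cell.

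Of the adhesion genes, 7 stood at least 1.5-fold higher in Slit1 and 2 stood at least 1.5-fold lower. The higher ones were neurofascin (Nfasc), Mpzl1, Lrrtm2, Ncam1, Lingo1, Lsamp and Cadm4, and the lower ones were Ncam2 and Megf10. Calls were made on log2(TPM + 1) in Slit1 minus that in vector. Genes entered when their 2 libraries averaged 1 TPM or more, a filter that 31 members and 13175 genes passed. The added 1 understates the change of low genes. Of the 31, 7 (22.6%) were called higher, against 3.72% of all genes tested, and 2 (6.45%) were called lower, against 4.83% of all genes tested. The names were chosen with earlier results of these data known, so these shares describe the list and are not an independent comparison. At a limit of 2-fold, Nfasc and Mpzl1 were the 2 members called higher and 0 were called lower, against 1.24% and 0.645% of all genes. The median difference was 0.00 over the members and -0.05 over all genes tested, and the members lay on either side of 0. A ratio below is Slit1 over vector unless 2 genes are named, when it compares their levels within a library, and "fold lower" is vector over Slit1. Intervals are 95% intervals for counting error alone, computed from the estimated counts. The 9 called members came from 7 of the 8 role groups; the remaining group, the other contactins, had 1 member at 1 TPM.

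**Figure D1:**
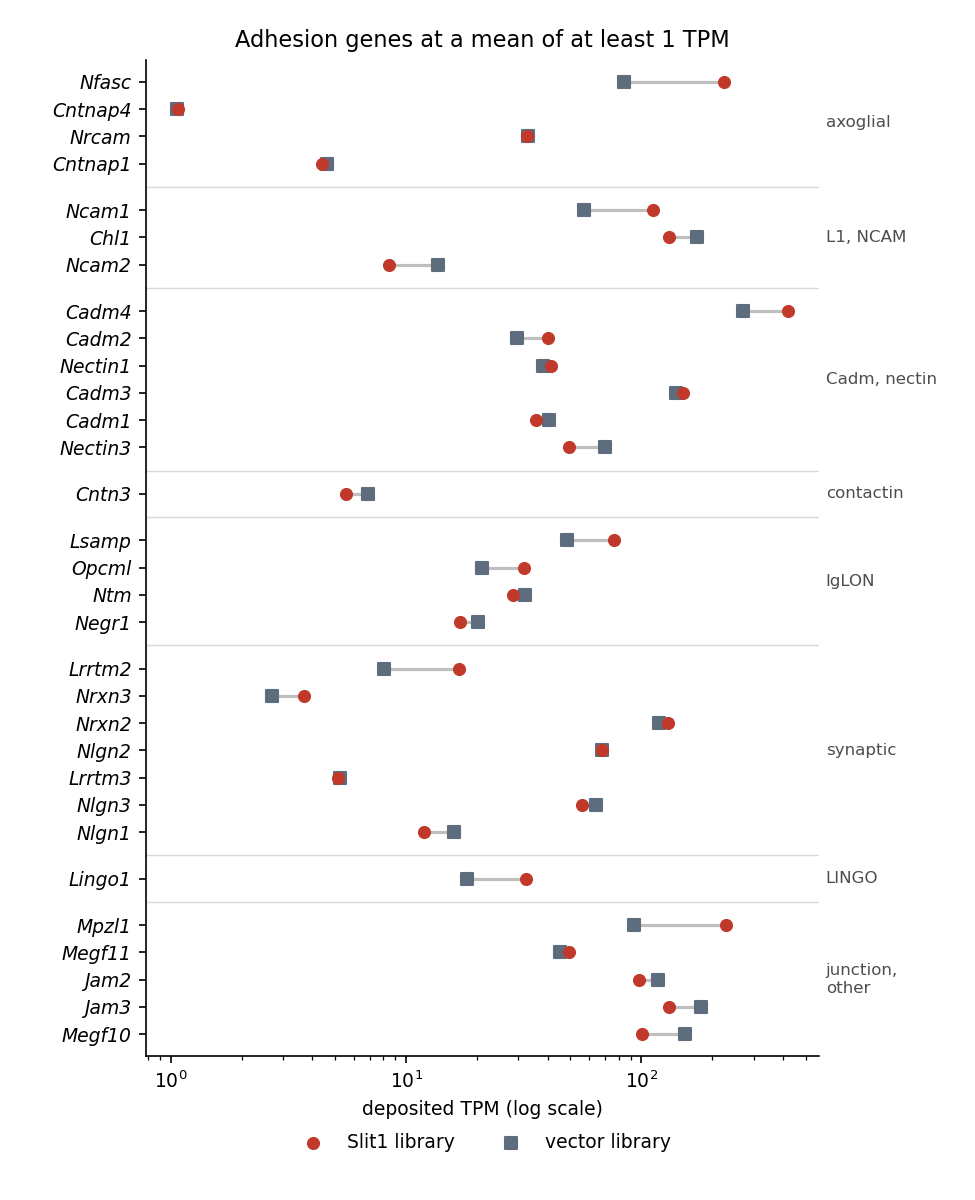
Deposited TPM of the 31 members averaging 1 TPM or more, on a log axis, grouped by role; circles are the Slit1 library and squares the vector library, with 1 library each. Nfasc stood at 225.0 TPM in Slit1 against 84.3 TPM in vector, and Megf10 at 101.0 TPM in Slit1 against 153.6 TPM in vector.

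Of the genes grouped under the node, paranode and juxtaparanode, Nfasc differed and the others at 1 TPM had ratios near 1. Nfasc (gene 116690) measured 225.0 TPM in Slit1 and 84.3 TPM in vector, with 19144 and 6748 estimated counts in Slit1 and vector. Its ratio was 2.67 (interval 2.60 to 2.75) and its log2 difference of 1.41 ranked 74 of 13175 from the top. Nfasc encodes neurofascin, an L1-family protein with a glial form at the paranode and a neuronal form at the node and axon initial segment; a table per gene does not separate these forms. Nrcam, a relative of neurofascin found at nodes, measured 32.5 TPM in Slit1 and 33.0 TPM in vector (ratio 0.985, interval 0.935 to 1.04). The level of Nfasc was 6.92 times that of Nrcam in Slit1 (interval 6.66 to 7.19) and 2.55 times in vector (interval 2.44 to 2.67), per length in each library.

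Caspr and its relatives had low levels. Cntnap1, which encodes Caspr, measured 4.37 TPM in Slit1 and 4.61 TPM in vector (ratio 0.948, interval 0.776 to 1.15). Cntnap4, a Caspr relative known from interneuron terminals in mice, measured 1.07 TPM in Slit1 and 1.06 TPM in vector (ratio 1.01, interval 0.660 to 1.53). Cntnap4 rested on 49.26 counts in Slit1 and 47.95 in vector, and its interval reached past 1.5-fold either way. Cntn2 (contactin-2, also called TAG-1) and Cntnap2 (Caspr2), the pair of the juxtaparanode, stayed below 1 TPM: Cntn2 had 41.1 estimated counts in Slit1 and 32.0 in vector, and Cntnap2 had 25 in Slit1 and 29 in vector. Cntn2 is the immediate protein-coding neighbour of Nfasc in the RefSeq annotation of the rat assembly GRCr8, yet stood at 0.48 TPM in Slit1 and 0.39 TPM in vector beside the difference in Nfasc. Cntn1, a paranodal partner of neurofascin and not itself among the 39 names, measured 76.7 TPM in Slit1 and 113.2 TPM in vector (1.48-fold lower, interval 1.41 to 1.54). Nfasc therefore lay above Cntn1 in Slit1, at 2.93 times its level (interval 2.83 to 3.04), and below it in vector, at 0.745 times its level (interval 0.718 to 0.772).

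The NCAM pair went in opposite directions. Ncam1 (gene 24586), the homophilic adhesion molecule that carries polysialic acid on migrating precursors, measured 111.8 TPM in Slit1 and 57.0 TPM in vector, from 5454 estimated counts in Slit1 and 2705 in vector. Its ratio was 1.96 (interval 1.87 to 2.05). Ncam2 (gene 288280), its paralogue, measured 8.49 TPM in Slit1 and 13.7 TPM in vector, from 595 and 925 counts, and was 1.62-fold lower (interval 1.46 to 1.80). Ncam1 was thus present at 13.2 times the level of Ncam2 in Slit1 (interval 12.1 to 14.4) and at 4.15 times in vector (interval 3.85 to 4.48). The lower call of Ncam2 was lost in FPKM (log2 difference -0.54), with a pseudocount of 5 (-0.47) and with the trend on gene length removed (-0.47), and also at a limit of 2-fold and with intervals wholly beyond 1.5-fold. Among the other L1-family genes, Chl1, a neurite growth and cell migration molecule, measured 131.2 TPM in Slit1 and 172.8 TPM in vector, 1.32-fold lower (interval 1.28 to 1.35) and inside the limit. L1cam, best known from axons, had 30 counts in Slit1 and 26 in vector and stayed below 1 TPM.

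In the Cadm family, Cadm4 (gene 365216) was the most abundant of all members in each library. It measured 422.2 TPM in Slit1 and 269.4 TPM in vector, a ratio of 1.57 (interval 1.49 to 1.65). Cadm4 is the glial partner of axonal Cadm3 along the internode, as worked out mainly in mouse and rat Schwann cells. Cadm3, though known as an axonal protein, was present at 149.7 TPM in Slit1 and 140.3 TPM in vector (ratio 1.07, interval 1.01 to 1.13). The synaptic adhesion genes Cadm2 (40.3 TPM in Slit1 and 29.6 TPM in vector, ratio 1.36, interval 1.27 to 1.46) and Cadm1 (35.6 TPM in Slit1 and 40.6 TPM in vector, ratio 0.875, interval 0.814 to 0.941) lay on either side of 1. Summed over the 4 Cadm genes the level was 647.7 TPM in Slit1 and 479.9 TPM in vector, most of it Cadm4. The nectins, which pair across adherens junctions, measured 41.5 TPM in Slit1 and 38.3 TPM in vector for Nectin1 (ratio 1.08, interval 1.02 to 1.16) and 49.2 TPM in Slit1 and 69.8 TPM in vector for Nectin3 (1.42-fold lower, interval 1.32 to 1.53). Neither nectin reached the limit.

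The IgLON genes, whose products are small GPI-anchored immunoglobulin proteins that modulate neurite outgrowth and synapse number, divided into a higher and a slightly lower pair. Lsamp (gene 29561) measured 76.6 TPM in Slit1 and 48.4 TPM in vector (ratio 1.58, interval 1.502 to 1.67). Opcml measured 31.7 TPM in Slit1 and 21.1 TPM in vector, with a ratio of 1.51 (interval 1.41 to 1.61), but its log2(TPM + 1) difference of 0.57 fell just short of the limit. The called members nearest the limit on the higher side were Cadm4 at 0.65 and Lsamp at 0.65. Ntm measured 28.6 TPM in Slit1 and 32.1 TPM in vector (ratio 0.891, interval 0.807 to 0.984), and Negr1 16.9 TPM in Slit1 and 20.1 TPM in vector (ratio 0.841, interval 0.760 to 0.932). Opcml and Ntm are immediate protein-coding neighbours in the GRCr8 annotation, and their order was turned: Opcml stood at 1.11 times the level of Ntm in Slit1 (interval 1.02 to 1.21) and at 0.657 times in vector (interval 0.603 to 0.717).

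**Figure D2:**
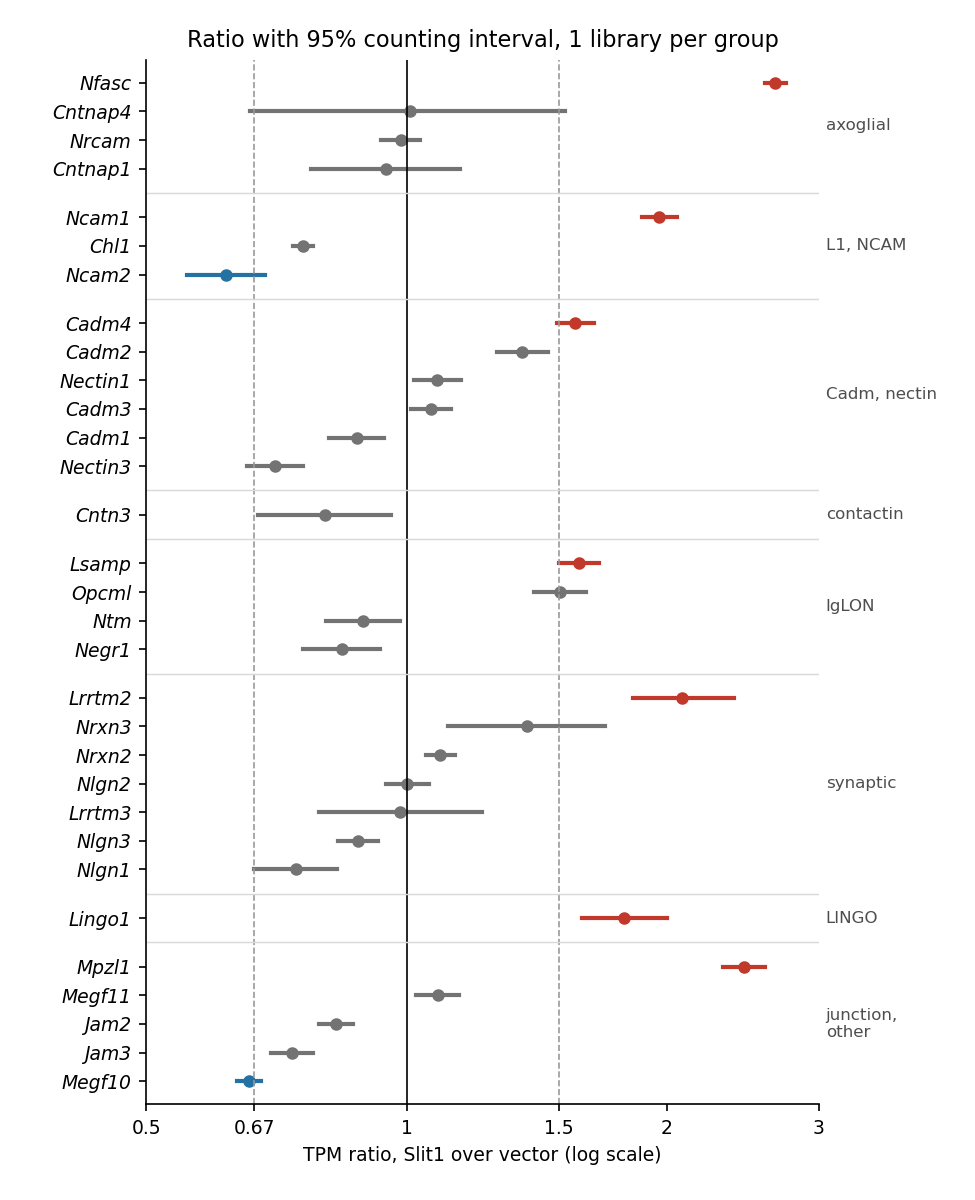
TPM ratio of each of the 31 members, Slit1 over vector, on a log axis with 95% counting intervals; dashed lines mark 1.5-fold in either direction, and red and blue points are the members called higher and lower on log2(TPM + 1). The interval of Nfasc runs from 2.60 to 2.75 and that of Megf10 from 0.638 to 0.678, and these intervals hold no spread between cultures.

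Most of the other contactins had few counts. Cntn3 was the one of this group at 1 TPM, with 5.55 TPM in Slit1 and 6.89 TPM in vector (ratio 0.806, interval 0.674 to 0.960). Cntn4 had 27 estimated counts in Slit1 and 40 in vector, Cntn6 had 23 in Slit1 and 12.9 in vector, and Cntn5 had 2 in Slit1 and 0 in vector, where a count of 0 allows up to 0.0659 TPM. These are neuronal GPI-anchored proteins of axon guidance and synapse formation. Cntn3, Chl1, Cntn6 and Cntn4 follow each other without another protein-coding gene between them in GRCr8, and Chl1 was the one abundant member of that row of genes. With Cntn2, Cntnap2, L1cam and Lingo2, these 3 contactins make up the 7 members below a mean of 1 TPM, whose counts ranged from 0 to 41.1.

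Among synaptic organisers, Lrrtm2 differed most while the abundant members differed little. Lrrtm2 (gene 685472), a leucine-rich repeat protein of excitatory postsynaptic membranes that binds neurexins, measured 16.8 TPM in Slit1 and 8.07 TPM in vector, from 706.6 counts in Slit1 and 325.4 in vector. Its ratio was 2.09 (interval 1.83 to 2.39). Lrrtm2 lies within Ctnna1, an abundant catenin gene with 8997 counts in Slit1 and 10076 in vector; no label says whether strand was used in counting, so reads of the pair cannot be told apart. Ctnna1 measured 318.7 TPM in Slit1 and 343.1 TPM in vector. Its relative Lrrtm3 measured 5.15 TPM in Slit1 and 5.24 TPM in vector (ratio 0.983, interval 0.793 to 1.22), and Lrrtm2 was present at 3.27 times the level of Lrrtm3 in Slit1 (interval 2.77 to 3.87) and at 1.54 times in vector (interval 1.27 to 1.86).

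Neurexins and neuroligins, which bind each other across the synaptic cleft, showed no difference past the limit. Nrxn2 measured 129.7 TPM in Slit1 and 118.6 TPM in vector (ratio 1.09, interval 1.05 to 1.14). Nrxn3 measured 3.69 TPM in Slit1 and 2.68 TPM in vector (ratio 1.38, interval 1.12 to 1.70). Nlgn2, the neuroligin of inhibitory synapses, measured 68.0 TPM in Slit1 and 67.9 TPM in vector (interval of the ratio 0.946 to 1.06). Nlgn1, which acts at excitatory synapses, measured 11.9 TPM in Slit1 and 15.9 TPM in vector, 1.34-fold lower (interval 1.203 to 1.499). Nlgn3 measured 56.2 TPM in Slit1 and 63.9 TPM in vector, a ratio of 0.879 (interval 0.833 to 0.927), whereas its estimated counts were 2815 in Slit1 and 2721 in vector, a ratio of counts per total (CPM ratio) of 1.02 (interval 0.972 to 1.08). The direction of Nlgn3 therefore depends on the unit, and no direction is given for it.

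Lingo1 (gene 315691) measured 32.3 TPM in Slit1 and 18.1 TPM in vector, from 848.0 and 479.0 counts, a ratio of 1.79 (interval 1.595 to 2.002). LINGO-1 is a transmembrane partner of the Nogo receptor and is known as a brake on oligodendrocyte differentiation and myelination. Its coreceptor Rtn4r measured 12.6 TPM in Slit1 and 8.09 TPM in vector (log2 difference 0.58, just short of the limit). The related receptor Tnfrsf19 (TROY) measured 28.4 TPM in Slit1 and 15.4 TPM in vector (ratio 1.84, interval 1.53 to 2.23). On the same fixed list, Ngfr was not among the genes at 1 TPM. Rhoa of that list measured 953.2 TPM in Slit1 and 1076 TPM in vector (ratio 0.886, interval 0.865 to 0.908). A joint change of these genes was not tested. Lingo3, a paralogue outside the 39 names, was 1.79-fold lower (interval 1.44 to 2.24), so that Lingo1 stood at 4.20 times the level of Lingo3 in Slit1 (interval 3.48 to 5.09) and at 1.31 times in vector (interval 1.12 to 1.54). Lingo2 had 4.38 counts in Slit1 and 2.87 in vector.

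Of the junctional and remaining genes, Mpzl1 was higher, Megf10 was lower and the JAM genes lay between. Mpzl1 (gene 360871), also called PZR, an immunoglobulin protein that binds the phosphatase SHP-2, measured 228.1 TPM in Slit1 and 92.9 TPM in vector, from 4515 counts in Slit1 and 1769 in vector. Its ratio of 2.46 (interval 2.32 to 2.60) ranked 92 of 13175 by log2 difference. Ptpn11, the gene of SHP-2, measured 110.6 TPM in Slit1 and 99.6 TPM in vector (ratio 1.11, interval 1.07 to 1.15). By level, Mpzl1 ranked 2 among the members in Slit1 and 8 in vector, and Nfasc ranked 3 in Slit1 and 9 in vector.

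Megf10 (gene 291445), an engulfment receptor best known from astrocytes, measured 101.0 TPM in Slit1 and 153.6 TPM in vector, from 6877 counts in Slit1 and 10047 in vector. It was 1.52-fold lower (interval 1.48 to 1.57), a call at the very edge of the limit that was lost under 6 of the 9 alternatives of pseudocount, floor and scaling, and also at a limit of 2-fold and with intervals wholly beyond 1.5-fold. The 6 included median centring (log2 difference -0.55), CPM (-0.56) and FPKM (-0.55). The astrocyte transporter gene Slc1a2 and the astrocyte connexin gene Gja1 were lower in the same library while Gfap was higher. Other astrocyte markers were mixed: Aqp4 and Aldoc had ratios of 1.19 and 1.12, and Sox9 was 1.37-fold lower. Aldh1l1 and Fgfr3 had ratios of 1.03 and 0.932, and Gjb6 had 1 count in each library. A tie of Megf10 to the astrocyte content was not tested. Megf11, the paralogue of Megf10, known from the spacing of retinal neurons in mice, measured 49.2 TPM in Slit1 and 45.3 TPM in vector (ratio 1.09, interval 1.02 to 1.15). Megf10 stood at 2.05 times the level of Megf11 in Slit1 (interval 1.96 to 2.15) and at 3.39 times in vector (interval 3.24 to 3.56). Jam3 measured 131.7 TPM in Slit1 and 178.8 TPM in vector, 1.36-fold lower (interval 1.28 to 1.44). Jam2, a junctional adhesion molecule known in mice to keep myelin off neuronal cell bodies, measured 97.4 TPM in Slit1 and 117.5 TPM in vector, 1.21-fold lower (interval 1.15 to 1.26). The JAM genes thus lay on the lower side, within the 1.5-fold limit.

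The mean transcript length implied by counts and FPKM differed by more than 10% between the libraries for 3 of the 31 members, Nlgn3, Lsamp and Nectin3, and for 3.88% of the 13158 tested genes that had a length in each library. Lsamp had an implied length of 5.70 kb in Slit1 and 5.13 kb in vector, so its CPM ratio, 1.81 (interval 1.72 to 1.91), was above its TPM ratio of 1.58. Nectin3 had an implied length of 2.85 kb in Slit1 and 2.57 kb in vector, with a CPM ratio of 0.805 (interval 0.747 to 0.868) beside its TPM ratio of 0.705. For Nlgn3 the lengths were 5.57 kb in Slit1 and 4.92 kb in vector. A difference in implied length can come from the mixture of transcripts or from how reads were assigned to them, which was not tested. Nfasc differed little, at 9.45 kb in Slit1 and 9.26 kb in vector. The members were also long, with a median implied length of 4.92 kb in vector against 2.56 kb over all tested genes.

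**Figure D3:**
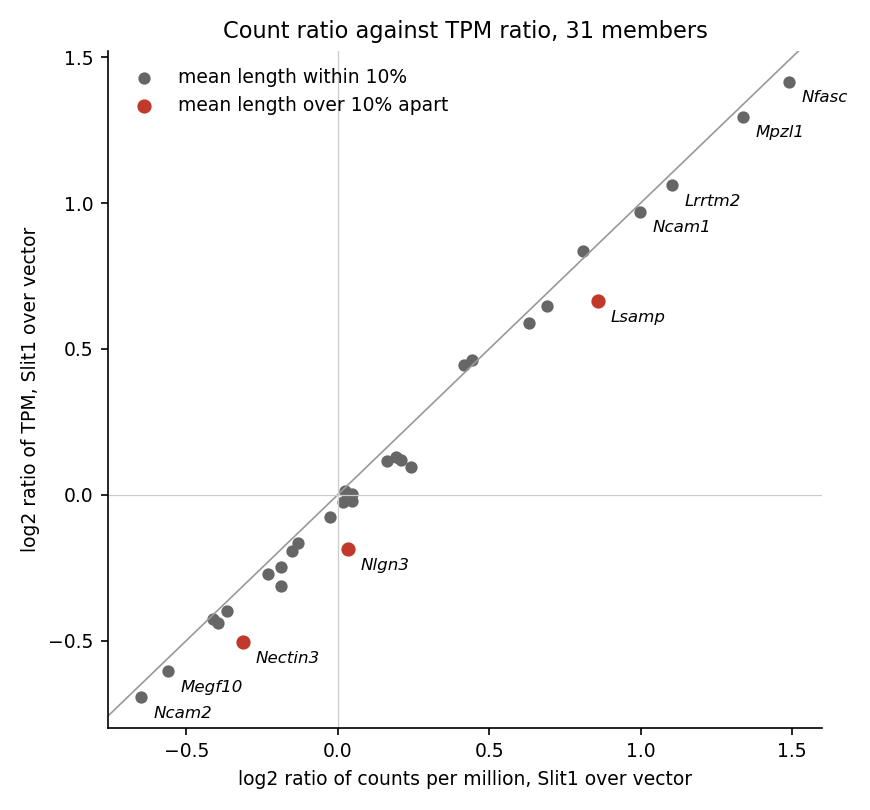
Log2 ratio of TPM (vertical) against log2 ratio of CPM (horizontal), Slit1 over vector, for the 31 members; the line marks equality, and red points are the 3 members whose implied mean length differed by over 10% between the libraries. Nlgn3 lies below 0 in TPM and above 0 in counts.

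The promoters of 5 of the 7 called members with a window are shown so that their base composition can be compared, and those of Lingo1 and Lsamp are described without their letters. The windows come from RefSeq (GRCr8), hold the 250 bases before an annotated start, and were found for 25 of the 38 genes (32 windows, since some genes have several starts). They are given 5′ to 3′ on the strand of the gene in lower case, with capitals for any match, on either strand, to an E-box (CAGCTG, a sequence bound by basic helix-loop-helix factors), a Sox-type sequence (ACAAAG) or a GC box (GGGCGG). No match overlapped another in the windows shown. For Nfasc, which has several starts, the outermost is given, at chr13:46701165-46701414 on the minus strand. Mpzl1 lies at chr13:80422229-80422478 on the minus strand, Lrrtm2 at chr18:27096968-27097217 on the minus strand, Cadm4 at chr1:89202839-89203088 on the plus strand and Ncam2, which was lower, at chr11:33591573-33591822 on the plus strand.
Nfasc: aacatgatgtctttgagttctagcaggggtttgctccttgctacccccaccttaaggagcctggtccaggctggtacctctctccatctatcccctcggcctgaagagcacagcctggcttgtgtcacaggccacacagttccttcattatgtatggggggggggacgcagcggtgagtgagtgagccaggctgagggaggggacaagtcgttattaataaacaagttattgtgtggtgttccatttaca
Mpzl1: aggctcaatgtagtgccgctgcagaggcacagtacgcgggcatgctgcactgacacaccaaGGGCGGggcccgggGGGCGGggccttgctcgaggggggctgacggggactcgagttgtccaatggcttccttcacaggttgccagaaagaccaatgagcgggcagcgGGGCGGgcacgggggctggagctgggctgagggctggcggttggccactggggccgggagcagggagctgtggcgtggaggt
Lrrtm2: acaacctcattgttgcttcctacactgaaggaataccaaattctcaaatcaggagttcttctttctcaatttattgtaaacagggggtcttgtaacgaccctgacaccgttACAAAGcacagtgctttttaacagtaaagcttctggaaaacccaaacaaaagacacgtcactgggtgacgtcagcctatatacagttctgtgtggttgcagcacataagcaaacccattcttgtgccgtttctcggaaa
Cadm4: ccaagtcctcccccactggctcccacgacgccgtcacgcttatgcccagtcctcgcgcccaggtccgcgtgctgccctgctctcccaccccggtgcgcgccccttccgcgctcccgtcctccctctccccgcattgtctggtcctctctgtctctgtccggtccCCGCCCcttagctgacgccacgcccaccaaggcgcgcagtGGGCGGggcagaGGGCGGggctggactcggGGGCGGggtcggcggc
Ncam2: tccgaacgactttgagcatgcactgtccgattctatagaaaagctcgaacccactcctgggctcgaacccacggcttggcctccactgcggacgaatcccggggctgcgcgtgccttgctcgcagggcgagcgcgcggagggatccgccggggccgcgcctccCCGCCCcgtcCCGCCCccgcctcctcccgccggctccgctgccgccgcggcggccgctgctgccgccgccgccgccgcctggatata

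These windows had little in common. The one of Nfasc was 52.8% G and C and held none of the 3 motifs, that of Lrrtm2 was 42.4% G and C with 1 Sox-type match, and those of Mpzl1 (69.2%), Cadm4 (74.0%) and Ncam2 (73.2%) were rich in G and C, with 3, 4 and 2 GC boxes. The window of Lingo1 was 78% G and C with 1 E-box and no GC box, and the 2 windows of Lsamp were 54.8% and 56.8% G and C with none of the motifs. For comparison, the median share of G and C was 51.2% over all 33469 windows and 56% over the 32 member windows. GC boxes stood before genes that were higher and before a gene that was lower. Over the 32 member windows, 11 (34.4%) held a GC box, against 30.5% of all 33469 windows; 5 (15.6%) held the Sox-type sequence, against 16.3%; and 3 (9.38%) held the E-box, against 11.97%. Several windows of Megf11 overlapped nearly in full, so windows are not separate promoters. By gene, 11 of the 25 held a GC box, 5 the Sox-type sequence and 3 the E-box. The matching shares by gene over all genes were not counted. A match describes letters, not a bound site.

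Genes around the members were counted from fixed lists, by the same limit. Beside each count below, 3.72% of all genes tested were called higher and 4.83% lower. In a short list, 1 or 2 calls are little to go by. The differentiation list set the scene: of 14 genes at 1 TPM, 12 were called higher and 0 lower (median log2 difference 1.56), led by Mbp, Mag, Cldn11 and Enpp6. Mbp, the major protein of compact myelin, measured 1704 TPM in Slit1 and 220.5 TPM in vector, and Mag, an adhesion protein of the inner myelin membrane, 70.2 TPM in Slit1 and 9.07 TPM in vector. The members' median was 0.00, and these differentiation genes were known to differ from earlier results of these data. Sox10 and Gpr17 of this list are also among the OPC markers above.

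Close relatives of the members that the list of names leaves out were lower where they passed the limit. Of 10 such relatives at 1 TPM, 0 were called higher and 3 lower: Megf9 (25.5 TPM in Slit1 and 45.0 TPM in vector), Lingo3 (7.69 TPM in Slit1 and 13.8 TPM in vector) and Mpzl3 (9 counts in Slit1 and 26 in vector). Their median was -0.35, against -0.05 for all genes tested. Of 53 other adhesion genes of glia and synapses, 5 were higher and 4 lower (median 0.02). Mag, Mog, Igsf21 (21.3 TPM in Slit1 and 11.3 TPM in vector) and Gldn, the gliomedin gene (7.2 TPM in Slit1 and 3.65 TPM in vector), differed most. Mog rested on 33.4 counts in Slit1 and 3.88 in vector. Mag and Mog also belong to the differentiation list, so their higher calls are counted in each list.

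A list of cytoplasmic anchors and scaffolds, which also holds signalling proteins and surface receptors such as Tnfrsf19 and Rtn4r, went either way. Of its 40 genes at 1 TPM, 5 were higher and 2 lower (median -0.07). Ank3, ankyrin-G, which binds neurofascin, measured 9.24 TPM in Slit1 and 3.81 TPM in vector (ratio 2.43, interval 2.07 to 2.86). The more abundant ankyrin gene Ank2 measured 203 TPM in Slit1 and 285 TPM in vector (1.40-fold lower, interval 1.37 to 1.43). Ank1 had a ratio of 1.07 (interval 0.806 to 1.41). Apba1, an adaptor of the neurexin-linked Cask complex, measured 9.35 TPM in Slit1 and 3.69 TPM in vector (ratio 2.53, interval 2.16 to 2.99), whereas Lin7c of the same complex measured 22.0 TPM in Slit1 and 41.2 TPM in vector (1.87-fold lower, interval 1.47 to 2.39). Cask itself, the other gene called lower and named after its values were seen, measured 71.8 TPM in Slit1 and 123.3 TPM in vector (1.72-fold lower, interval 1.65 to 1.79). Proteases that cleave adhesion molecules were called lower in 2 of 18 cases and higher in 0 (median -0.09). These were Adam10, the sheddase of many immunoglobulin adhesion proteins (44.8 TPM in Slit1 and 71.1 TPM in vector), and Mmp14 (134.2 TPM in Slit1 and 203.1 TPM in vector). The next in size were Adam12 (1.48-fold lower) and Bace1 (1.34-fold higher), inside the limit.

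**Figure D4:**
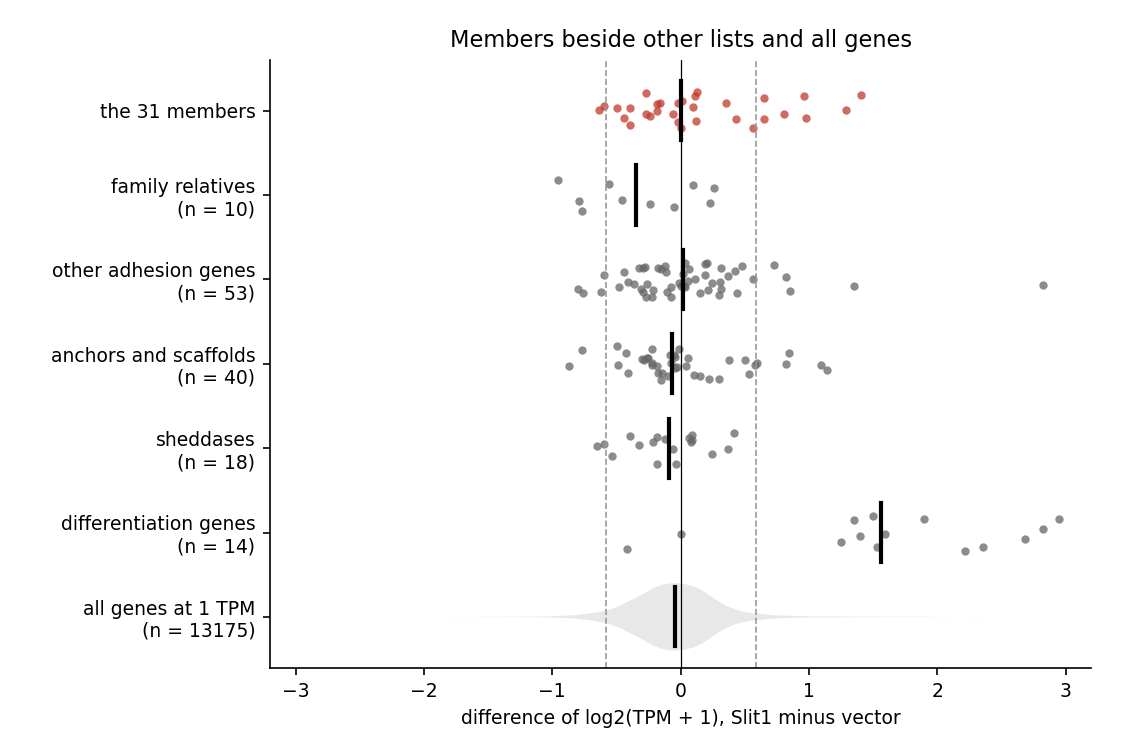
Log2(TPM + 1) in Slit1 minus that in vector for the members and the 5 other gene lists, averaging 1 TPM or more, (points, 1 gene each) and for all genes (grey outline, with the 7 genes beyond 3.2 drawn at the edge); bars are medians and dashed lines mark 1.5-fold. The members spread from -0.63 to 1.41 around a median of 0.00, and the differentiation genes have a median of 1.56.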

How the data were processed

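RNA of rat oligodendrocyte precursor cells was sequenced after transfection with Slit1 or vector, 1 library each. The authors deposited FPKM (scaled by length and library size), TPM (rescaled to a common library total) and estimated counts (unnormalized, not whole) for each gene, per the file headers. Per the submitters' processing notes, the genome build was mRatBN7.2. The aligner, counter, annotation, strand setting and filters: not given in the sources used here. TPM sums to 1000000 per library. No value column belonged to another sample. Members were taken by symbol; the members and lists were chosen with earlier results of these data known. Other list names were also matched through RefSeq symbols and synonyms.

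Each gene's log2(TPM + 1) in vector was subtracted from that in Slit1. Genes averaging 1 TPM or more were kept, and those past 1.5-fold were called. With 1 library per group no test was run. Ratios carry exact (Clopper-Pearson) 95% intervals for 2 Poisson counts, from estimated counts rounded to whole numbers; these, and the limit of 3 counts for a count of 0, cover counting error only, since reads are not independent molecules. The implied length of a gene is its count divided by FPKM and library total. The depth was 18998770 counts in Slit1 and 18817462 in vector. All members were to be accounted for, with up to 4 genes of the largest difference named per other list. Ptpn11, Rtn4r, Tnfrsf19, Ngfr, Rhoa, Cntn1, Ctnna1, Iglon5, Ank1, Ank2 and Cask were named as well, partly after their values were seen. The same holds for the lower genes Lingo3 and Megf9. The settings varied were the pseudocount (0.1 or 5), the floor (none or 5 TPM), a 2-fold limit, edgeR TMM factors, median centring, CPM, FPKM, a lowess trend on length removed (span 0.3), and intervals wholly beyond 1.5-fold. The level of 1 Schwann cell marker is not reported here. The calculation was tested on simulated data. Those data held counting error alone, so the test checks the arithmetic and cannot speak to spread between cultures. Python 3.11.15, scipy 1.17.1, statsmodels 0.14.6 and edgeR 4.0.16 were used.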

Additional observations from a re-analysis of the deposited data

How the results depend on the processing

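No paired analysis was possible because each group had 1 library; for the same reason no replicate could be left out. The number of members called higher was 7 on the measure reported. It was 7 or 8 under every other pseudocount, floor and scaling, 6 with intervals wholly beyond 1.5-fold and 2 with a limit of 2-fold. Of all genes, 1.96% to 4.76% were called higher under those pseudocounts, floors and scalings, 1.97% by intervals and 1.24% at 2-fold. Cadm4, whose interval began at 1.49, was the member missing from the 6. Nfasc, Mpzl1, Lrrtm2, Ncam1, Lingo1, Lsamp and Cadm4 kept their call in all 9 alternatives of pseudocount, floor and scaling; Opcml, at a log2 difference of 0.57, crossed the limit in 5 of them. The number called lower was 2 on the measure reported and 1 with median centring, edgeR TMM factors or CPM. It was 0 with a pseudocount of 5, FPKM, the gene length trend removed, a limit of 2-fold or intervals wholly beyond 1.5-fold. Of all genes, 2.10% to 6.58% were called lower under those pseudocounts, floors and scalings, 1.91% by intervals and 0.645% at 2-fold. These low counts are not read as a result about the members.

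The median log2 difference of the members moved from 0.0025 to 0.0297 without a floor on TPM, -0.0092 with a floor of 5 TPM, 0.0491 with median centring, 0.0576 with edgeR TMM factors, 0.0461 in CPM, 0.0331 in FPKM and 0.1193 with the gene length trend removed. It stayed within 0.12 of 0 throughout. Of members not called, Nlgn3 changed sign with edgeR TMM factors and in CPM, as did Nrcam and Lrrtm3 near 0, which also did so with centring, in FPKM and with the trend removed; Cntnap1 did so with the trend removed. The depth leaves members below 1 TPM without a usable ratio.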
